A study of Mus musculus with 2 samples.

Results

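The enzymes that break down the amino acid lysine were compared between B16F10 cells that overexpressed NRF3 and B16F10 cells that expressed GFP. B16F10 is a pigmented mouse melanoma line, and NRF3, encoded by Nfe2l3, is a cap'n'collar transcription factor bound to the endoplasmic reticulum. The NRF3 cells and the GFP cells had each received their expression plasmid together with a puromycin resistance vector, had been selected with puromycin as stable populations, and had then been given forskolin for 5 days. Forskolin activates adenylate cyclase, and both groups received it, so its own effect cannot be read from these data. Each group was 1 array of total RNA, and there were no replicates. The differences below therefore compare these 2 RNA samples and carry no error and no p-value. The species of the NRF3 coding sequence, the promoter of the plasmids and whether a population grew from 1 clone were not stated in the labels.

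The 9 genes were the enzymes of the main mitochondrial route, taken from a named list, out of 19505 genes measured. They were chosen by their place in this pathway and by a measured value, the NRF3 minus GFP difference of Aass on these same arrays, which was among the highest. Accordingly the difference of Aass describes the choice and supports nothing by itself. Values are the deposited log2 expression values of 1 probe set per gene, and each of the 9 genes had exactly 1. A gene counted as detected if at least 1 array gave it a log2 value of 5.89 or more, which is the median over the named probe sets on both arrays. By this floor 8 of the 9 enzymes were detected, against 10162 of all 19505 genes. Of the control rows with neg in their name, 66.5% also reached this floor on at least 1 array, so detected does not by itself mean expressed. Control rows with neg in their name had medians of 6.37 on the NRF3 array and 6.12 on the GFP array, and upper quartiles of 7.85 and 7.52 on the same arrays, so values near the floor are not shown to be expression.

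Lysine is broken down in mitochondria, most actively in liver and kidney. AASS joins lysine to 2-oxoglutarate and splits the product, saccharopine, into glutamate and aminoadipate semialdehyde. ALDH7A1 oxidises that aldehyde to 2-aminoadipate, and AADAT transfers its amino group away to leave 2-oxoadipate, the point at which tryptophan breakdown enters the same route. A dehydrogenase complex of DHTKD1 and DLST, with the shared subunit DLD, makes glutaryl-CoA from it. GCDH turns glutaryl-CoA into crotonyl-CoA and passes electrons to the electron transfer flavoprotein. ECHS1 hydrates crotonyl-CoA, HADH oxidises the product, and ACAT1 cleaves acetoacetyl-CoA into acetyl-CoA. The last enzymes also serve the oxidation of fatty acids, branched-chain amino acids or ketone bodies.

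The cells carried the markers of the labelled cell type. The 7 melanocyte genes Tyr, Tyrp1, Dct, Pmel, Mlana, Mitf and Sox10 were detected, with log2 values between 13.08 for Tyr and 18.95 for Tyrp1 in the NRF3 cells, and between 11.67 and 18.90 for the same genes in the GFP cells. None of 5 measured leukocyte markers, 6 fibroblast and endothelial markers or 6 epithelial markers reached the floor, and their highest value was 5.67, for Cdh1. Nfe2l3 had a log2 value of 10.15 in the NRF3 cells and 6.04 in the GFP cells, where the value lay under the neg median of 6.12.

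Aass was far higher in the NRF3 cells, whereas the other 7 detected enzymes lay between -0.86 and 0.61 on the log2 scale (NRF3 minus GFP). By a size rule of at least 1.5-fold, 2 of the 8 detected enzymes were higher in the NRF3 cells, Aass and Echs1, and 1 was lower, Dlst. Aass was chosen for its high difference, so its place in this count was fixed beforehand. Of the other 7, only Echs1 was higher and only Dlst lower. Among all 10162 detected genes the same rule counted 17.0% as higher and 23.6% as lower. This balance depends on the scaling, with 1728 genes higher and 2396 lower as deposited, but 2124 higher and 2018 lower after quantile normalization. By a rule of 2-fold only Aass remained, against 6.75% of detected genes higher and 11.0% lower. The median difference of the 8 detected enzymes was 0.02, and that of the 7 other than Aass was -0.18. Over all detected genes it was -0.07, with quartiles of -0.55 and 0.39. Of the 7 detected enzymes other than Aass, 4 lay between those quartiles, 3 were above 0 and 4 were below it. The other 3, Dlst, Echs1 and Gcdh, lay outside them.

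**Figure D1:**
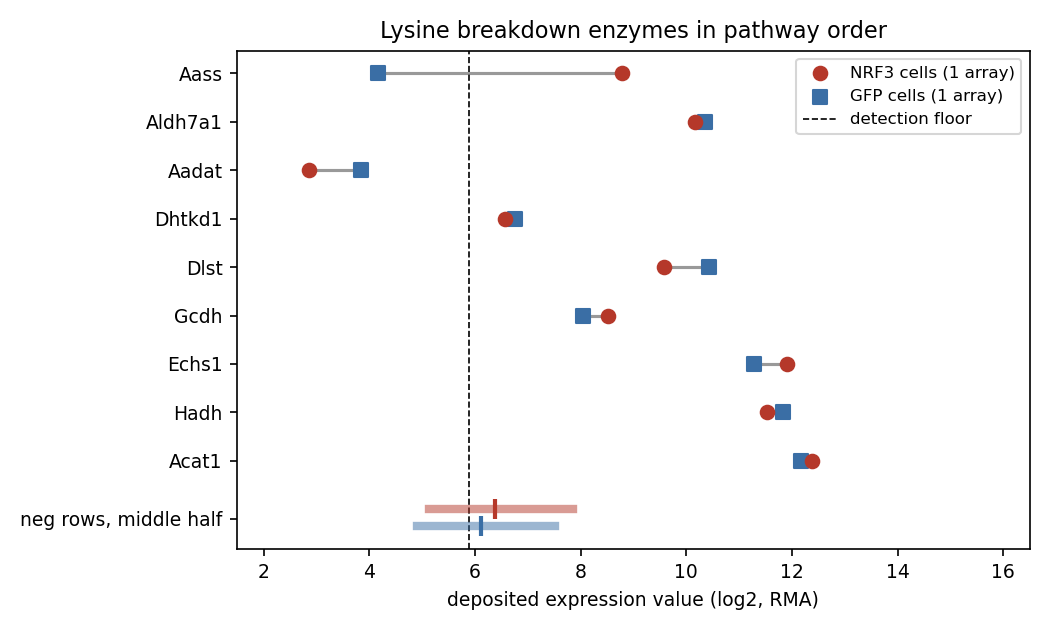
Deposited log2 expression values (RMA scale, horizontal axis) of the 9 lysine breakdown enzymes, from the first step at the top to the last, with 1 array for NRF3 cells (circles) and 1 for GFP cells (squares). The dashed line is the detection floor at 5.89, and the bars at the bottom span the quartiles of the control rows named neg on each array, with a tick at the median. Aass is at 8.79 in NRF3 cells and 4.18 in GFP cells, on either side of the floor, Aadat lies below it on both arrays, and the values of the other pairs lie within 0.86 of each other.

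Aass (NCBI gene 30956, chromosome 6), which encodes the bifunctional first enzyme, had a log2 value of 8.79 in the NRF3 cells and 4.18 in the GFP cells. The NRF3 value lay above the upper quartile of the neg rows on its array, 7.85. The GFP value lay under the lower quartile of those rows on its array, 4.91, and under the detection floor, so it cannot be told from background. The difference of 4.62, or 24.5-fold, therefore depends on that background. With the GFP value raised to the floor the difference was 2.90, which is 7.47-fold. Set against the neg median of the GFP array, the NRF3 value lay 2.67 higher.

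In the order of differences over all 10162 detected genes, Aass stood at place 2. Eya1, a co-activator of developmental transcription, was above it at 6.54. Nfe2l3 itself was next below at 4.11, followed by Sema6d, which encodes a transmembrane semaphorin, at 4.02. With values under the floor set to the floor Aass moved to place 10, a comparison added after the data were seen.

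**Figure D2:**
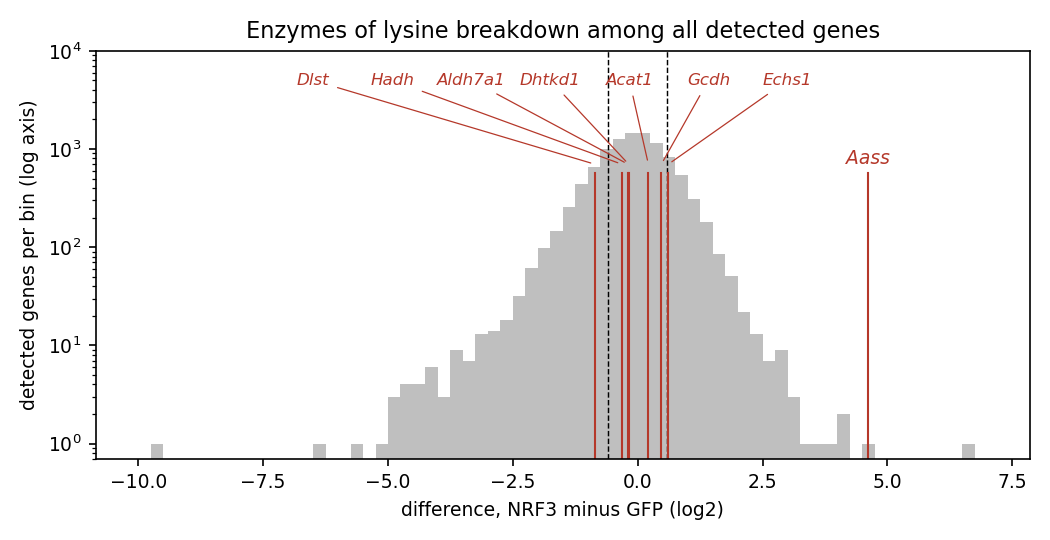
Differences of log2 values (NRF3 minus GFP, horizontal axis) of all 10162 detected genes as a histogram with a log vertical axis. Vertical lines mark the 8 detected lysine breakdown enzymes, and dashed lines mark 1.5-fold either way. Aass, at 4.62, stands in the sparse right tail, and the other 7 enzymes lie between -0.86 and 0.61, inside the bulk of the genes.

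The promoters of Aass and Dlst are shown because these 2 enzymes had the highest and the lowest difference among those detected. Each stretch of 300 bases covers 250 bases before the annotated transcription start and 50 bases from it on, from RefSeq on build GRCm38.p6, read 5′ to 3′ on the gene's own strand. Capitals mark matches to any of 6 motifs searched on both strands: the antioxidant response element core TGACNNNGC, a motif type bound by cap'n'collar factors with small MAF proteins, the cAMP response element TGACGTCA and the short element TGACG, which it contains, the E-box CACGTG, the M-box core TCATGTG of MITF targets, and the CCAAT box, which reads ATTGG on the other strand. The Aass window is chr6:23132937-23133236 on the minus strand, and the Dlst window is chr12:85110583-85110882 on the plus strand.
Aass: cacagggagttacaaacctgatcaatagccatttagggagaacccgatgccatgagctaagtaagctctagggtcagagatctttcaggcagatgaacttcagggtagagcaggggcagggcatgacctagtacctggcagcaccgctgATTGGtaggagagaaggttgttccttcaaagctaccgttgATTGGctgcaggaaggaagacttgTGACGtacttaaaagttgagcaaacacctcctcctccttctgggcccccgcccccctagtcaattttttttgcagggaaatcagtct
Dlst: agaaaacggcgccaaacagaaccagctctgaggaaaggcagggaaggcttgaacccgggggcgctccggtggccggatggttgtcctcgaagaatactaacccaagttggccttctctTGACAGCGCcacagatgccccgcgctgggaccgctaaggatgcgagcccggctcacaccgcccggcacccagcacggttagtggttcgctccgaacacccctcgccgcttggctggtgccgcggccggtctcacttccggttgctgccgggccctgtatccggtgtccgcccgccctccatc

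The Aass window held 1 TGACG element, which begins at position -37 from the start, and 2 CCAAT boxes on the other strand, at -101 and -61. It held no match to the antioxidant response element core, the TGACGTCA element, the E-box or the M-box core. The Dlst window held 1 antioxidant response element core, at -132, and no other match. Over the 32851 promoters of the same table, the TGACG element occurred in 20.8%, the CCAAT box in 37.4% and the antioxidant response element core in 12.4%. The TGACGTCA element occurred in 1.79%, the E-box in 7.15% and the M-box core in 3.77%. Promoters were listed for 7 of the 9 enzymes, and among these the antioxidant response element core was found in that of Dlst only. The Dhtkd1 window held an E-box at position 17 after the start, and the windows of Aadat, Gcdh and Hadh held 1 CCAAT box each. Dhtkd1 held 2 CCAAT boxes, and the Echs1 window matched none of the 6 motifs. A match describes letters in a window and is not a measured binding site.

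Aldh7a1 (chromosome 18), the aldehyde dehydrogenase of the second step, had a log2 value of 10.16 in the NRF3 cells and 10.35 in the GFP cells. The difference of -0.20 is 1.14-fold lower and lies within the quartiles of all detected genes. It ranked 5798 from the highest of 10162. The step directly after AASS thus lay within the 1.5-fold rule, with both values well above the upper quartile of the neg rows.

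Aadat (chromosome 8), the aminotransferase of the third step, had values of 2.86 in the NRF3 cells and 3.85 in the GFP cells. Both lay under the floor and under the lower quartiles of the neg rows, 5.12 on the NRF3 array and 4.91 on the GFP array, so no fold is given. AADAT also acts as a kynurenine aminotransferase, and other enzymes with that activity were detected. Kyat1 had a log2 value of 8.02 in the NRF3 cells and 9.35 in the GFP cells, a difference of -1.33. Kyat3, named for the same activity, differed by -0.12, and Got2, the mitochondrial aspartate aminotransferase, by 0.53.

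The 2-oxoadipate dehydrogenase step combined a gene near background with subunits that were lower. Dhtkd1 (chromosome 2), the first catalytic subunit, had values of 6.58 in the NRF3 cells and 6.76 in the GFP cells. Both lay between the median and the upper quartile of the neg rows, and its difference of -0.18 may depend on background. Dlst (chromosome 12), the succinyltransferase core that the complex shares with 2-oxoglutarate dehydrogenase, had 9.58 in the NRF3 cells and 10.44 in the GFP cells. Its difference was -0.86, or 1.82-fold lower, and 14.3% of detected genes lay at or below it. Dld, the dihydrolipoyl dehydrogenase of both complexes, had 12.15 in the NRF3 cells and 12.80 in the GFP cells and differed by -0.65.

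Ogdh, the first subunit of 2-oxoglutarate dehydrogenase, differed by -1.03, with 14.10 in the NRF3 cells and 15.14 in the GFP cells. The 3 genes of the 2-oxoglutarate dehydrogenase complex, Ogdh, Dlst and Dld, were thus each at least 1.5-fold lower in the NRF3 cells. These 3 were not a list fixed beforehand, and the same rule counted 23.6% of all detected genes as lower. No shift of the complex is read from them. With the median of all detected genes subtracted, Dld lay at -0.58, just inside the rule. Ogdhl, a relative of Ogdh, lay on the other side, with 7.41 in the NRF3 cells and 5.75 in the GFP cells. Its GFP value lay under the floor and its NRF3 value under the neg upper quartile of 7.85, so the difference of 1.66 depends on background. With the floor in place of the GFP value it was 1.52.

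Gcdh (chromosome 8), the glutaryl-CoA dehydrogenase, had 8.53 in the NRF3 cells and 8.05 in the GFP cells. The difference was 0.47, or 1.39-fold, inside the 1.5-fold rule. Genes of chromosome 8 were higher as a whole, with a median difference of 0.56 over 549 detected genes, of which 47.5% were at least 1.5-fold higher. The median of the 20 detected genes nearest to Gcdh was 0.91, so relative to its neighbours Gcdh lay at -0.43 and changed sign. Of the 20 measured genes beside it, 10 on each side, 15 were detected, 12 were at least 1.5-fold higher and 0 lower. Its closest detected neighbours were Syce2, with 7.30 in the NRF3 cells and 5.79, under the floor, in the GFP cells, and Farsa, which differed by 0.74. The nearest measured genes on the other side, Klf1 and Mast1, lay under the floor. The part of the whole chromosome's shift in the Gcdh difference was not tested.

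Around Aass the neighbouring genes went both ways. Of the 20 measured genes beside Aass, 7 were detected, and their differences ran between -1.18 and 1.27, with Ing3 as the 1 gene at least 1.5-fold higher and Tspan12 and Slc13a1 as the 2 lower, all 3 named after their values were seen. Slc13a1 had 6.10 in the NRF3 cells, under the neg median of that array, 6.37. Its GFP value, 7.08, lay under the neg upper quartile of 7.52, so its difference may depend on background. The direct neighbours of Aass, Ptprz1 and Fezf1, lay under the floor, as did Cadps2, and Fam3c differed by -0.01. The median of the 20 detected genes nearest to Aass was 0.18. Aass was chosen for its high difference, and its GFP value lay under background, so nothing is read from its distance to these genes. Chromosome 6 as a whole had a median difference of -0.01 over 524 detected genes. Aadat, also on chromosome 8, had the undetected neighbours BC030500 and Gm15881 on one side, and Mfap3l, at -0.99, and Hpf1, at 0.71, on the other. The NRF3 value of Mfap3l, at 5.10, lay under the floor.

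**Figure D3:**
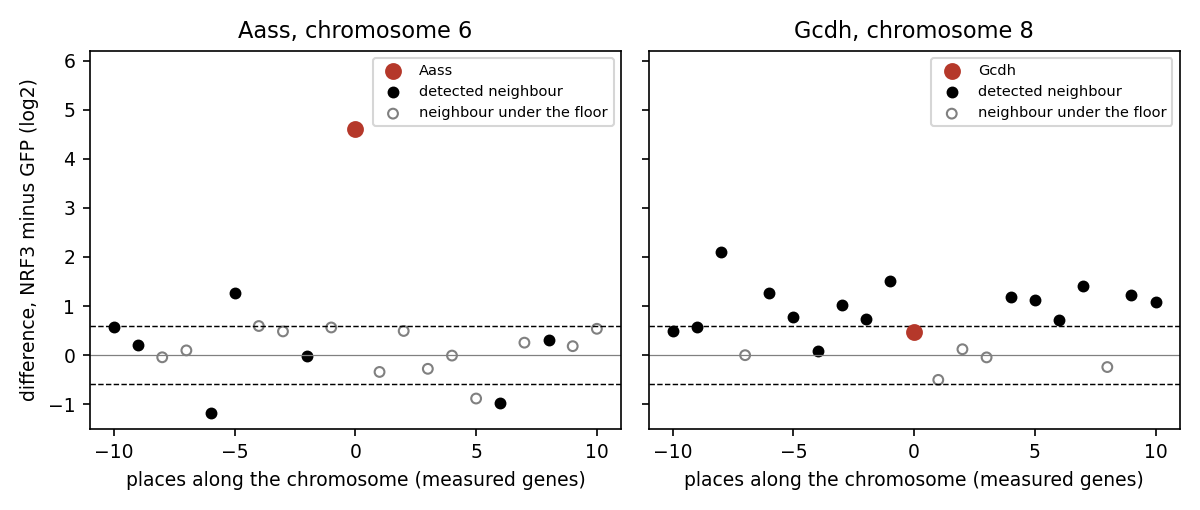
Differences of log2 values (NRF3 minus GFP, vertical axis) of Aass and Gcdh and of the 10 measured genes on each side of them, by place along the chromosome. Filled points are detected genes, open points genes under the floor on both arrays, and dashed lines mark 1.5-fold either way. The detected neighbours of Aass, itself at 4.62, lie between -1.18 and 1.27, and Gcdh, at 0.47, lies below most of its detected neighbours.

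Of the enzymes of the last 3 steps of the route, only Echs1 passed the 1.5-fold rule. Echs1 (chromosome 7), the enoyl-CoA hydratase, had 11.90 in the NRF3 cells and 11.29 in the GFP cells, a difference of 0.61 or 1.53-fold. That lies just past the 1.5-fold rule, which is 0.58 on the log2 scale, and relative to its 20 nearest detected neighbours it was 0.43 and no longer past it. Chromosome 7 had a median difference of 0.23 over 723 detected genes. Hadh (chromosome 3), the 3-hydroxyacyl-CoA dehydrogenase, had 11.52 in the NRF3 cells and 11.84 in the GFP cells and differed by -0.32. Acat1 (chromosome 9), the mitochondrial acetoacetyl-CoA thiolase, had 12.38 in the NRF3 cells and 12.16 in the GFP cells and differed by 0.21. These 3 enzymes act one after the other, and the middle one lay on the other side of 0 from the first and the last. With 1 array per group, differences of this size cannot be told from the spread between cultures, which was not measured.

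Genes around the pathway lay on both sides of 0. Of 17 transporters, partners and side-branch enzymes fixed as a list, 16 were measured and 9 detected, and 2 of the 9 were at least 1.5-fold higher and 3 lower. The higher ones were Ogdhl and Slc25a29, and the lower ones Ogdh, Dld and Phykpl. Over all detected genes the shares were 17.0% higher and 23.6% lower. The median difference of the 9 was 0.18, and it was -0.13 once the median of the 20 nearest detected genes was taken from each. Slc7a1, the main cationic amino acid transporter that brings lysine into many cells, had 13.56 in the NRF3 cells and 13.38 in the GFP cells and differed by 0.18. Its relatives Slc7a2 and Slc7a3 lay under the floor on both arrays. Slc25a29, a mitochondrial carrier of basic amino acids, had 6.23 in the NRF3 cells and 5.54 in the GFP cells. Both values lay under the neg medians, so the difference of 0.69 cannot be told from background.

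The measured electron acceptors that serve GCDH were within the rule, while Etfb, a subunit of the electron transfer flavoprotein, was not measured. Etfa, the other subunit of the flavoprotein, differed by 0.25, with 11.97 in the NRF3 cells and 11.72 in the GFP cells. Etfdh, which passes the electrons on to ubiquinone, differed by 0.44, with 12.71 in the NRF3 cells and 12.28 in the GFP cells. Sirt5, a mitochondrial deacylase that removes glutaryl groups from proteins, differed by -0.04, and its values of 7.23 and 7.28 lay under the neg upper quartiles. Phykpl, of hydroxylysine breakdown, had 8.11 in the NRF3 cells and 8.71 in the GFP cells. Its difference of -0.59 was just past the rule, and after subtraction of the median of all detected genes it was -0.52.

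The side route through pipecolate and the handling of glutarate gave no detected gene. Pipox, the pipecolate oxidase, and Crym, a ketimine reductase, lay under the floor on both arrays. Slc25a21, the carrier of 2-oxoadipate, Sugct, which attaches CoA to glutarate, and Hykk, the hydroxylysine kinase, lay under it as well. Hykk had 5.86 in the NRF3 cells, just under the floor, and 4.51 in the GFP cells.

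Of 4 genes that use lysine for other ends, 2 were detected. Kars, the lysyl-tRNA synthetase, had 13.69 in the NRF3 cells and 12.75 in the GFP cells, a difference of 0.95 or 1.93-fold. Kars lies on chromosome 8, and relative to its 20 nearest detected neighbours it lay at 0.12, inside the rule. Aldh9a1, an aldehyde dehydrogenase of carnitine synthesis, differed by -0.26. Tmlhe and Bbox1, the hydroxylases at the start and the end of carnitine synthesis, lay under the floor on both arrays.

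Neighbouring mitochondrial routes were set beside lysine breakdown with the same rule. That rule counted 17.0% of all detected genes as higher and 23.6% as lower. With 1 array per group, no shift of a route is read from the counts. In branched-chain amino acid breakdown, 20 genes were detected, of which 0 were at least 1.5-fold higher and 6 were lower, with a median of -0.45. Bckdhb, a subunit of the branched-chain 2-oxoacid dehydrogenase, differed by -1.69, with 6.59 in the NRF3 cells and 8.28 in the GFP cells. Its NRF3 value lay under the neg upper quartile, so the size may depend on background. Bcat2, the mitochondrial branched-chain aminotransferase, differed by -1.12, and Mccc1 and Acadsb by 0.54 and 0.15. After median centring the counts were 1 higher and 3 lower.

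The 16 detected genes of the citrate cycle and pyruvate dehydrogenase had a median of -0.45, and 0 were at least 1.5-fold higher and 4 lower. The shares over all detected genes, 17.0% higher and 23.6% lower, stand beside this count and the fatty acid count below. Pdha1, of pyruvate dehydrogenase, differed by -1.24 and Idh3a, of isocitrate dehydrogenase, by -0.89. The other 2 lower genes, named after their values were seen, were Pdhx, at -0.77, and Dlat, at -0.72, both of the pyruvate dehydrogenase complex. The NRF3 value of Pdhx, 7.70, lay under the neg upper quartile of its array, 7.85. Sdhd and Sdhc, subunits of succinate dehydrogenase, had the highest differences, at -0.03 and -0.31. Relative to its 20 nearest detected neighbours on chromosome 1, Sdhc lay at 0.61 and above 0. Of 13 genes of mitochondrial fatty acid oxidation, 1 was higher, Acadvl at 0.91, and 1 was lower, Eci1 at -0.96, with a median of -0.34. Decr1 differed by 0.22 and Acaa2 by -0.47. In tryptophan breakdown 6 of 8 genes lay under the floor. The detected ones were Haao, at 0.56, whose values of 6.70 in the NRF3 cells and 6.14 in the GFP cells lay under the neg upper quartiles, and Afmid, at -0.48. After median centring Haao lay at 0.63, past the rule.

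**Figure D4:**
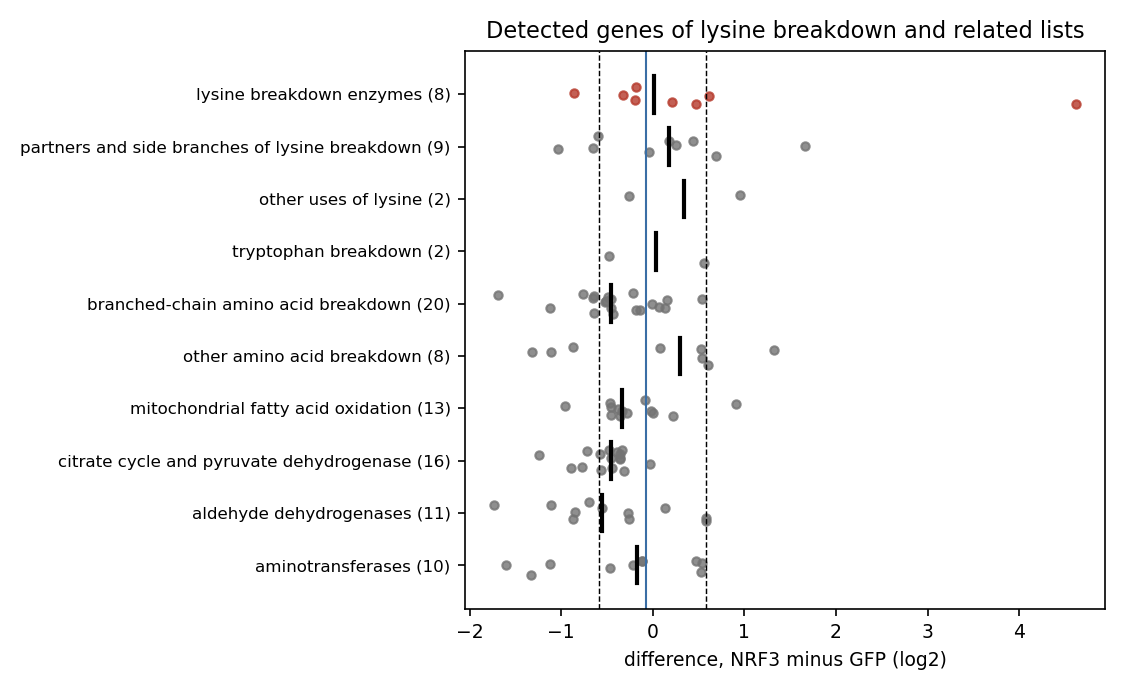
Differences of log2 values (NRF3 minus GFP, horizontal axis) of the detected genes of each list, with the number detected in brackets; lysine breakdown enzymes are in the top row. Black bars are list medians, the solid vertical line is the median of all detected genes, -0.07, and dashed lines mark 1.5-fold either way. Aass, at 4.62, lies to the right of every other plotted gene, the next of which is Ogdhl at 1.66.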

How the data were processed

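Total RNA of 2 samples, 1 per group, was measured on Affymetrix arrays after biotin labelling. The deposited values are log2 expression per probe set, made by the authors with Affymetrix Expression Console and RMA, as the submitters' processing notes in the labels name them, per the labels. Their version, background settings and the build of the arrays were not given in the sources used here. Values reach 19.7 on the NRF3 array and 19.8 on the GFP array, past 16, the log2 limit of a 16-bit scanner, so every fold is a fold on the deposited scale. The number of arrays limits the precision. The value table holds 28846 rows, of which 19572 carry 1 gene symbol, 0 several and 9274 none in the platform annotation. All 19572 matched the RefSeq gene table (GRCm38.p6) by gene number, which gave chromosomes and gene order. Where a gene had several probe sets (55 genes), the brightest by mean of both arrays stood for it.

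The difference was NRF3 minus GFP in log2. Counts used a rule of at least 1.5-fold among detected genes, which is not a test. Named were the 9 enzymes, the measured genes of the partner and lysine-use lists, the 2 highest and 2 lowest detected genes of the other lists, genes beside Aass in the order of differences, and genes beside Aass, Aadat and Gcdh on the chromosome. The members and lists were chosen with earlier results of these data known. Some listed genes are not reported here. Calculations used Python 3.11.15, pandas 2.3.3 and statsmodels 0.14.6 (lowess, span 0.3). Recovery of known shifts on simulated arrays was required of the alternative scalings only. The floor, the ranks and the counts of the lists were not tested in that way. Alternatives were 2-fold, median centring, quantile normalization, a lowess trend, the mean over probe sets, a floor at the 75th percentile, no floor, the median of the 20 nearest detected genes subtracted and, added after the data were seen, values under the floor set to it.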

Additional observations from a re-analysis of the deposited data

How the results depend on the processing

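The difference of Aass, the value it was chosen by, stayed past 1.5-fold and above 0 under the 8 alternatives that gave it a value. It lay between 2.90 and 4.89. Aass ranked second of all genes in 7 of them and at place 10 with values under the floor set to the floor. The 2-fold rule, no floor and the mean over probe sets could not change the difference, as Aass has 1 probe set. This stability describes the choice of Aass and supports nothing further. With the floor at the 75th percentile, 9.51, Aass was no longer detected, as its brighter value was 8.79, and 5 enzymes remained. The number of enzymes higher, 2 with the main settings, was 1 with a 2-fold rule, 1 with that floor and 1 with the local median subtracted. The number lower, 1 with the main settings, was 0 with a 2-fold rule and 2 without a floor, where Aadat was counted. Gcdh passed the rule after quantile normalization, at 0.64, and after the lowess trend, at 0.60, and lay at -0.43 with the local median subtracted. Echs1, at 0.61, and Dlst, at -0.86, lay inside a 2-fold rule. Aldh7a1, Dhtkd1, Hadh and Acat1 kept their side of the rule in each alternative that gave them a value. Over all detected genes, 1728 were higher and 2396 lower; the counts were 686 and 1122 with a 2-fold rule, 951 and 1283 at the 75th percentile floor, and 2931 and 3171 without a floor. They were 2035 and 2095 after median centring and 1958 and 2125 after the lowess trend, and quantile normalization turned the balance, with 2124 higher and 2018 lower. Quantile normalization moved the median of all detected genes by 0.10. No paired analysis was possible because each group had 1 array. Dim values limit Aass, Aadat, Dhtkd1 and Ogdhl most.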

Other observations

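The families of the second and the third enzyme were also read. Over all detected genes the 1.5-fold rule counted 17.0% as higher and 23.6% as lower. Of 17 aldehyde dehydrogenase genes listed beside Aldh7a1, 11 were detected, and by the 1.5-fold rule the NRF3 cells had 0 of them higher and 5 lower, with a median of -0.56. Aldh1l2, the mitochondrial 10-formyltetrahydrofolate dehydrogenase, differed by -1.73, with 10.57 in the NRF3 cells and 12.31 in the GFP cells. Aldh4a1, of proline breakdown, differed by -1.11, and its NRF3 value of 5.89 lay just under the floor. The other 3 lower genes, named after their values were seen, were Aldh1b1 at -0.87, Aldh16a1 at -0.85 and Aldh5a1 at -0.70. The NRF3 value of Aldh1b1 lay under the floor and those of Aldh16a1 and Aldh5a1 under the upper quartile of the control rows named neg, 7.85. Aldh2, which clears acetaldehyde, and Aldh3a2, which oxidises fatty aldehydes, had the highest differences, at 0.58 each, just inside the rule; after median centring 2 genes of this list were past it. With values under the floor set to it the list median was -0.27.

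Of 12 aminotransferase genes 10 were detected, 0 higher and 3 lower, with a median of -0.17. The shares over all detected genes were 17.0% higher and 23.6% lower. Abat, which breaks down GABA, differed by -1.60, with 7.92 in the NRF3 cells and 9.52 in the GFP cells, Kyat1 by -1.33 and Bcat2 by -1.12. Got2 and Oat, the ornithine aminotransferase, had the highest differences, at 0.53 each. Relative to their 20 nearest detected neighbours, Got2, on chromosome 8, lay at -0.02 and Oat at 0.19. In the breakdown of other amino acids, 8 of 17 measured genes were detected, 2 higher and 3 lower, beside the same shares over all detected genes. Gcsh, the H protein of the glycine cleavage system, differed by 1.32, with 11.85 in the NRF3 cells and 10.53 in the GFP cells. It lies on chromosome 8, and relative to its 20 nearest detected neighbours it lay at 0.46. Fah, of tyrosine breakdown, differed by 0.60, or 0.27 relative to its neighbours. Prodh, the proline dehydrogenase, differed by -1.32 and Uroc1, of histidine breakdown, by -0.87, with its NRF3 value of 5.65 under the floor. The NRF3 value of Prodh, 7.16, lay under the same upper quartile of 7.85. The other genes of the glycine cleavage system, Gldc and Amt, lay under the floor on both arrays.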
